A study of Arabidopsis thaliana with 32 samples.

Results

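PORB, CHLM and LIL3:1 are 3 nuclear *Arabidopsis thaliana* genes whose products make chlorophyll or hold its enzymes in place. They were chosen by name, each through the probe sets that name only that gene, and each had 1 such probe set. Their loci are AT4G27440 for PORB, AT4G25080 for CHLM and AT4G17600 for LIL3:1. They are 3 of the 13355 genes with a probe set of their own name on the ATH1 array. The study followed heat stress and recovery in Col-0 plants, a wild-type accession, in shoots and in roots. All plants grew on Murashige and Skoog medium at 24 °C with 16 h days. On day 16, after 3 h of light, they were placed at 38 °C. Plants were harvested after 0.25, 0.5, 1 and 3 h of heat, and at 1, 3, 9 and 21 h of recovery at 25 °C after 3 h of heat. Each of the 16 combinations of tissue and time was measured on 2 arrays, 32 arrays in all. No unheated plants were used here, so each earlier time was set against 21 h of recovery, a harvest made at the same hour of the day as the start of heat. The harvests after 0.25, 0.5 and 1 h of heat are off that hour by no more than the length of heat given. From 3 h of heat to 9 h of recovery heat and time of day cannot be told apart. The plants at 21 h of recovery had themselves been through 3 h of heat. Against them, rose and fell mean higher and lower than their level. Whether that level carries after-effects of the heat was not tested. The labels do not say whether the 2 arrays of a group came from separate cultures, so p-values measure the spread between arrays, which may be technical.

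Chlorophyll is made in plastids from glutamate, through a trunk of porphyrin steps that it shares with haem. After magnesium has been inserted into protoporphyrin IX, CHLM, the magnesium protoporphyrin IX methyltransferase, adds a methyl group. Protochlorophyllide oxidoreductase then reduces protochlorophyllide to chlorophyllide in a step that needs light. PORB encodes a form of this enzyme that stays present in green *Arabidopsis* tissue. Protochlorophyllide that is not reduced can produce singlet oxygen in light. LIL3:1 encodes a light-harvesting-like protein of the thylakoid membrane that holds and stabilises geranylgeranyl reductase, the enzyme that makes the phytyl tail of chlorophyll.

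PORB was the only member with differences over time past both the p and the size threshold given below. In shoots it was higher than at 21 h of recovery at all 7 earlier times, by 2.58 to 16.0 times in mean signal, and its highest levels came after the heat had ended. CHLM and LIL3:1 stayed within a 2-fold range in shoots, with a highest over lowest mean of 1.48 and 1.89. Some of their differences in shoots passed the p threshold, and all were under the size threshold. All 3 genes were far higher in shoots than in roots at all 8 times, and none of them passed the thresholds for change over time in roots. Values are MAS5 signals on a linear scale, used as deposited. A change is called where the adjusted p-value (limma, Benjamini-Hochberg over 16782 probe sets) is below 0.05 and the log2 difference is at least 1 in size, on a log2(signal + 10.7) scale that understates changes of low signals.

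The tissue labels were checked against marker genes before the members were read. The 5 green tissue markers measured (PRK, RCA, PSBY, SBPASE and PSAN, of 17 listed) summed to signals of 14620 to 23490 in shoots and 121 to 773 in roots. RCA made up most of the highest root sum. Its root signals were 568 and 617 after 3 h of heat and 33.5 and 35.3 at 9 h of recovery. The 3 root markers measured (PYK10, EXPA7 and EXPA18, of 24 listed) summed to 198 to 925 in shoots and 1903 to 3805 in roots. Most of that sum was PYK10, at 1837 to 3774 on root arrays. EXPA7 and EXPA18 were dim, and their arrays overlapped between tissues. At 9 h of recovery in roots they were at 14.3 and 14.9, and 17.0 and 22.6, while single shoot arrays reached 23.5 and 30.5. Signs of RNA quality moved with time. The mean 25S ribosomal RNA signal in shoots was 146, 112, 1916 and 2405 after 0.25, 0.5, 1 and 3 h of heat and 203, 1289, 680 and 104 at 1, 3, 9 and 21 h of recovery. The mean actin 3′ over 5′ signal ratio in shoots was lowest after 0.25 h of heat, at 4.74, and highest after 3 h of heat, at 13.7. The 2 shoot arrays of 1 h of heat differed, with ratios of 14.9 and 4.72. The GAPDH 3′ over 5′ ratio in shoots lay between 1.28 after 3 h of heat and 2.104 at 1 h of recovery. In roots the 25S signal lay between 425 and 3080 and the actin ratio between 10.03 and 20.4. The 2 arrays of shoots at 9 h of recovery had 25S signals of 1270 and 88.6.

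**Figure D1:**
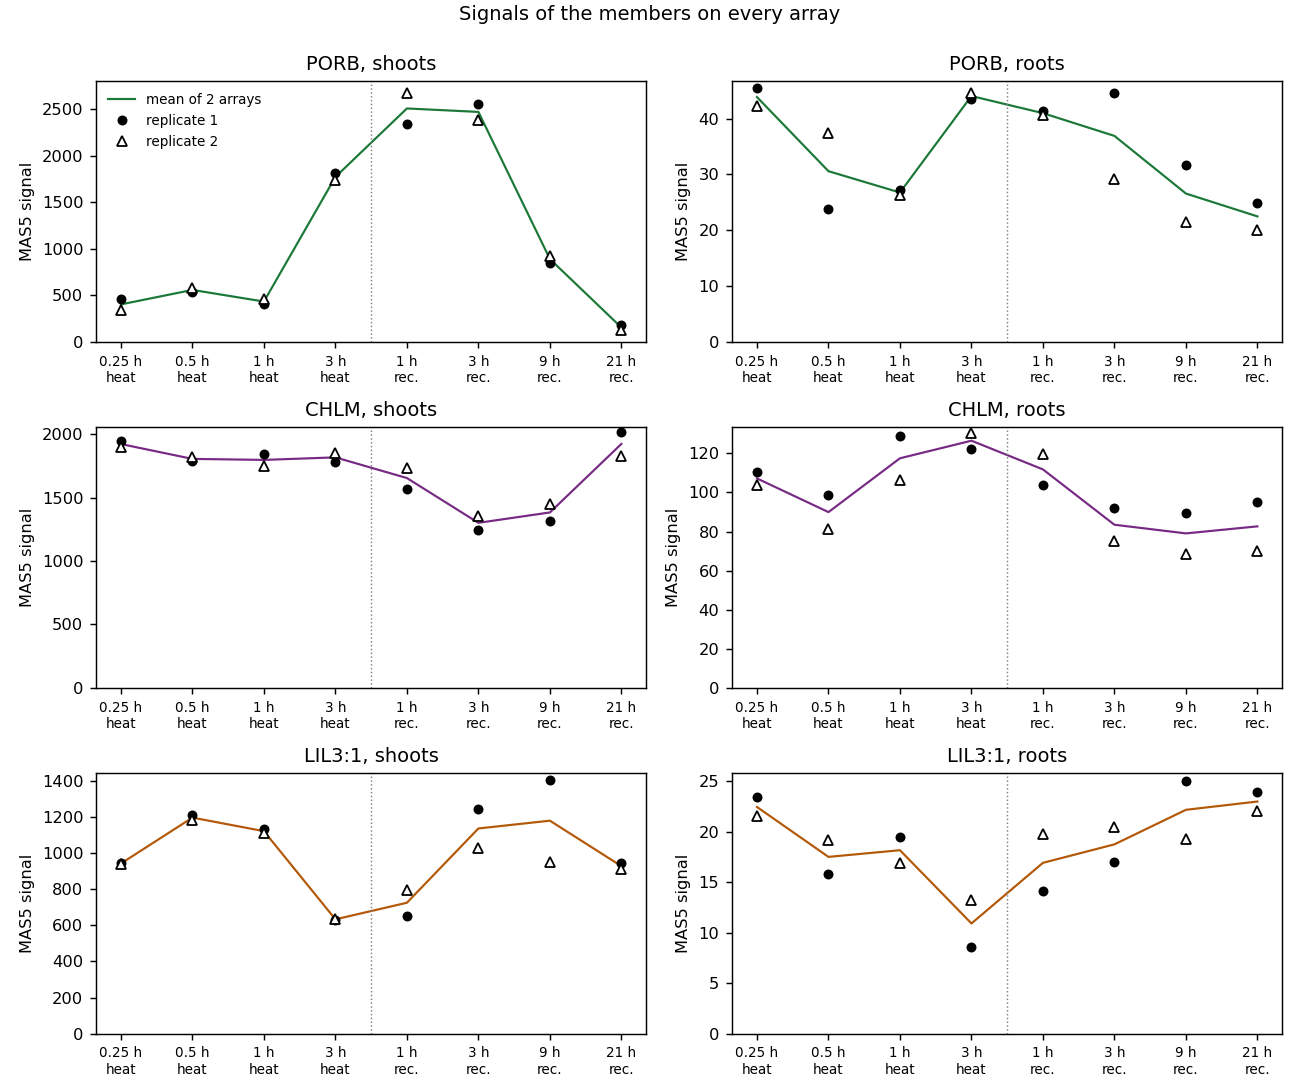
MAS5 signal (linear axis from 0) of PORB, CHLM and LIL3:1, top to bottom, on every array, with shoots on the left and roots on the right. Circles and triangles are the 2 arrays of a group, lines join their means, rec. is recovery, and the dotted line marks the end of heat. PORB in shoots runs from 131 on an array of 21 h of recovery to 2672 on an array of 1 h of recovery. Axes differ between panels, and heights are not comparable between genes.

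PORB in shoots had signals of 465 and 344 after 0.25 h of heat, 538 and 581 after 0.5 h, 407 and 463 after 1 h, and 1809 and 1733 after 3 h. During recovery its signals were 2339 and 2672 at 1 h, 2551 and 2384 at 3 h, 853 and 928 at 9 h, and lastly 183 and 131 at 21 h. The 2 arrays at 21 h of recovery were the lowest of the 16 shoot arrays, and no array of another time reached them. PORB had a low plateau through the opening hour of heat, with group means of 405 to 560, and a high one from 3 h of heat to 3 h of recovery, with means of 1771 to 2505. At 9 h of recovery its mean was 891 ± 53.2 (SD, n = 2), against 157 ± 36.5 at 21 h. The order of the group means from low to high was 21 h of recovery, 0.25 h, 1 h and 0.5 h of heat, 9 h of recovery, 3 h of heat, and then 3 h and 1 h of recovery. The neighbours 0.25 h and 1 h of heat overlapped on single arrays, and so did 3 h and 1 h of recovery. All other neighbours were separate.

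Against 21 h of recovery, PORB in shoots was higher by 1.31 ± 0.17 after 0.25 h of heat (log2 difference ± SE, 2 arrays a group, adjusted p = 2.049e-05). This was the comparison nearest in clock hour. In the same comparison 0.566% of all probe sets tested rose, and PORB ranked 45 from the highest of 16782. It was 1.78 higher after 0.5 h (adjusted p = 5.208e-08), where 1.25% of probe sets rose. After 1 h of heat it was 1.43 higher (adjusted p = 2.718e-07), with 3.44% of probe sets rising, and its rank was 331. After 3 h of heat the difference was 3.43 (adjusted p = 1.224e-14), a ratio of mean signals of 11.3, and 7.13% of probe sets rose.

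The highest values came in early recovery. PORB was higher than at 21 h of recovery by 3.92 at 1 h of recovery (adjusted p = 2.808e-15), a ratio of mean signals of 16.0, and by 3.90 at 3 h (adjusted p = 1.632e-15), a ratio of 15.7. These differences ranked 18 and 23 from the highest of 16782, in comparisons where 5.72% and 5.69% of probe sets rose. At 9 h of recovery PORB still stood 2.44 higher (adjusted p = 2.778e-11), with a ratio of mean signals of 5.68 and 2.98% of probe sets rising. That difference was 2.50 without the array of higher 25S signal and 2.38 without the other. The standard error was 0.17 for each of these differences. Signs of RNA quality were uneven over the same times. The shoot 25S signal was high after 3 h of heat (2405) and at 3 h of recovery (1289), where PORB was high, and after 1 h of heat (1916), where it was not. At 1 h of recovery, where PORB was highest, the 25S signal was 203 and the GAPDH ratio 2.104, the highest of the 16 groups, against 104 and 1.63 at 21 h. The part of RNA quality in the PORB values was not tested.

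Between neighbouring times, PORB in shoots rose once, late in the heat, and fell late in recovery. After 3 h of heat it was 2.0 higher than after 1 h of heat (adjusted p = 2.002e-09), a step that 2.78% of probe sets passed in that direction. It was 2.12 higher than after 0.25 h of heat (adjusted p = 1.353e-10), and 6.05% of probe sets rose in that comparison. The differences within the opening hour did not pass: 0.47 for 0.5 h against 0.25 h of heat (adjusted p = 0.0718) and -0.36 for 1 h against 0.5 h (adjusted p = 0.128). At 1 h of recovery PORB was 0.50 higher than after 3 h of heat (adjusted p = 0.0167), under the size threshold. The level at 3 h of recovery differed from that at 1 h by -0.02 (95% interval -0.37 to 0.33, adjusted p = 0.948). At 9 h of recovery PORB had fallen by 1.46 against 3 h of recovery (adjusted p = 2.834e-07), where 2.56% of probe sets fell. The last step was larger, as PORB at 9 h was 2.44 higher than at 21 h (adjusted p = 2.778e-11).

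**Figure D2:**
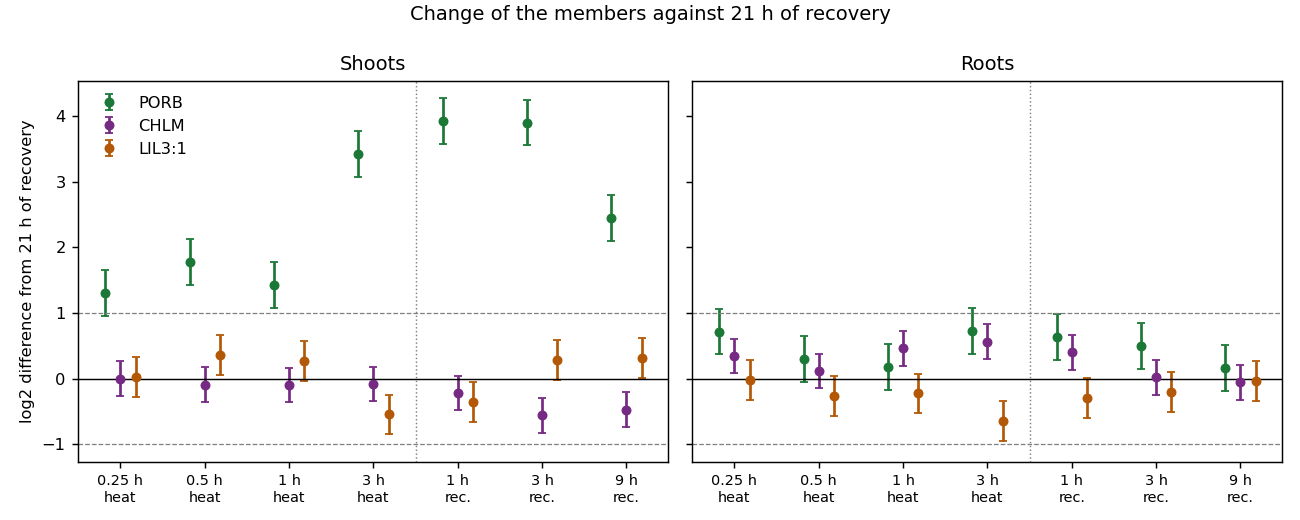
Log2 difference from 21 h of recovery for each earlier time, in shoots (left) and roots (right), with 95% intervals from the fit over all 32 arrays. Dashed lines mark the size threshold of 1 on the log2 scale, and rec. is recovery. PORB lies between 1.31 and 3.92 in shoots and between 0.16 and 0.72 in roots, and the other members stay between -0.65 and 0.57 in both tissues. LIL3:1 in roots lay below the 40th percentile on every array, and its points there carry no reading.

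CHLM, which acts upstream of PORB in the same branch, kept nearly the same level through the heat in shoots. Its signals were 1949 and 1896 after 0.25 h of heat, 1790 and 1820 after 0.5 h, 1844 and 1749 after 1 h, and 1783 and 1852 after 3 h. In recovery they were 1570 and 1737 at 1 h, 1246 and 1356 at 3 h, 1314 and 1451 at 9 h, and lastly 2019 and 1827 at 21 h. The arrays of 3 h and 9 h of recovery were the lowest 4 of 16, overlapped each other, and lay below all arrays of the other times. The log2 differences from 21 h of recovery were 0.00, -0.09, -0.10 and -0.08 after 0.25, 0.5, 1 and 3 h of heat, each with a standard error of 0.13. The interval of the difference after 3 h of heat was -0.34 to 0.18. Under other settings the value ran from -0.37 to 0.026 after 1 h of heat and from -0.26 to -0.0075 after 3 h, so the level kept depends on the scaling and constant. At 1 h of recovery the difference was -0.22 (adjusted p = 0.179). It was -0.56 at 3 h of recovery (adjusted p = 0.00091, 95% interval -0.82 to -0.30) and -0.47 at 9 h (adjusted p = 0.00666, -0.74 to -0.21), both past the p threshold and short of the size threshold. Without the 9 h array of higher 25S signal the value at 9 h was -0.40 (adjusted p = 0.0760). At 3 h of recovery the mean CHLM signal was thus 1301 ± 77.9 (SD, n = 2), against 1923 ± 135 at 21 h of recovery, at a time when PORB stood near its highest level.

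LIL3:1 in shoots had signals of 942 and 940 after 0.25 h of heat, 1208 and 1183 after 0.5 h, 1132 and 1108 after 1 h, and 631 and 634 after 3 h. In recovery they were 653 and 796 at 1 h, 1245 and 1026 at 3 h, 1405 and 952 at 9 h, and lastly 943 and 910 at 21 h. The 4 arrays of 3 h of heat and 1 h of recovery lay below all others. The pair at 9 h of recovery had the widest replicate ratio of the gene in shoots, 1.48, and its higher array was the one with the higher 25S signal. Against 21 h of recovery the differences were 0.02, 0.36 and 0.27 after 0.25, 0.5 and 1 h of heat (adjusted p = 0.973, 0.0890 and 0.152). After 3 h of heat the difference was -0.54 ± 0.15 (adjusted p = 0.00288, 95% interval -0.85 to -0.24), under the size threshold. It was -0.36 at 1 h of recovery (adjusted p = 0.0506), 0.28 at 3 h (adjusted p = 0.127) and 0.32 at 9 h (adjusted p = 0.117). The 9 h value rested on which array was used: it was 0.038 without the array of higher 25S signal (adjusted p = 0.909) and 0.59 without the other (adjusted p = 0.00526).

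The steps of LIL3:1 into and out of this low period were larger in size than each of its shoot differences from 21 h of recovery. After 3 h of heat LIL3:1 was at -0.81 relative to 1 h of heat (adjusted p = 0.000105, 95% interval -1.12 to -0.51), and the same step took PORB up by 2.0. At 3 h of recovery LIL3:1 was 0.64 higher than at 1 h of recovery (adjusted p = 0.00122, 0.34 to 0.94), while PORB differed by -0.02. Neither step of LIL3:1 passed the size threshold. Across the 8 shoot groups the mean log2 signals of PORB and LIL3:1 had a correlation of -0.34, PORB and CHLM of -0.62, and CHLM and LIL3:1 of -0.35, given as a description of 8 points that share their arrays. Across all 16 groups the same pairs had correlations of 0.89, 0.89 and 0.98, values that the difference between shoots and roots dominates.

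In roots the 3 genes were low. PORB signals were 45.4 and 42.2 after 0.25 h of heat, 23.7 and 37.4 after 0.5 h, 27.2 and 26.4 after 1 h, and 43.6 and 44.5 after 3 h. At 1, 3, 9 and 21 h of recovery they were 41.4 and 40.6, 44.5 and 29.3, 31.7 and 21.4, and 24.9 and 20.1. Both arrays lay above the 40th percentile of their array in 4 of the 8 root groups. At 21 h of recovery both arrays lay below it, so the root differences are set against a low level. The 6 arrays of 0.25 h and 3 h of heat and 1 h of recovery all lay above 40, and both arrays of 21 h of recovery below 25. The differences from 21 h of recovery were 0.72 after 0.25 h of heat (adjusted p = 0.0131), 0.30 after 0.5 h, 0.18 after 1 h and 0.72 after 3 h (adjusted p = 0.000736). In recovery they were 0.64 at 1 h (adjusted p = 0.00388), 0.50 at 3 h (adjusted p = 0.0309) and 0.16 at 9 h, and none reached the size threshold. Leaving out 1 array gave 0.62 to 0.82 after 0.25 h of heat and 0.62 to 0.83 after 3 h. It gave 0.54 to 0.74 at 1 h of recovery and 0.27 to 0.74 at 3 h.

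CHLM in roots had its highest group mean after 3 h of heat, with signals of 123 and 131, and its lowest at 9 h of recovery, with 89.5 and 68.6. At 21 h of recovery its signals were 95.1 and 70.3, and all 8 root groups lay above the 40th percentile on both arrays. CHLM was 0.46 higher after 1 h of heat than at 21 h of recovery (adjusted p = 0.00569), 0.57 higher after 3 h (adjusted p = 0.00051) and 0.40 higher at 1 h of recovery (adjusted p = 0.0146). The other 4 differences lay between -0.05 and 0.35. Leaving out 1 array moved the value to between 0.27 and 0.66 after 1 h of heat. The range was 0.375 to 0.76 after 3 h of heat and 0.21 to 0.59 at 1 h of recovery. LIL3:1 in roots lay between 8.61 and 25.0, and no root array lay above its 40th percentile, so it entered the tests through its shoot signals alone. Its lowest root arrays were those of 3 h of heat, at 8.61 and 13.2, against 24.0 and 22.03 at 21 h of recovery. No change over time is read from these dim signals.

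None of the 3 members was called in roots at any time. Over all probe sets, the share called in either direction in roots was 0.864% after 0.25 h of heat, 1.61% after 0.5 h, 5.84% after 1 h and 17.0% after 3 h. It was 6.32% at 1 h of recovery, 3.21% at 3 h and 2.07% at 9 h. In bulk tissue, fewer cells of a type and less RNA per cell cannot be told apart, here and in the comparisons of tissues that follow.

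**Figure D3:**
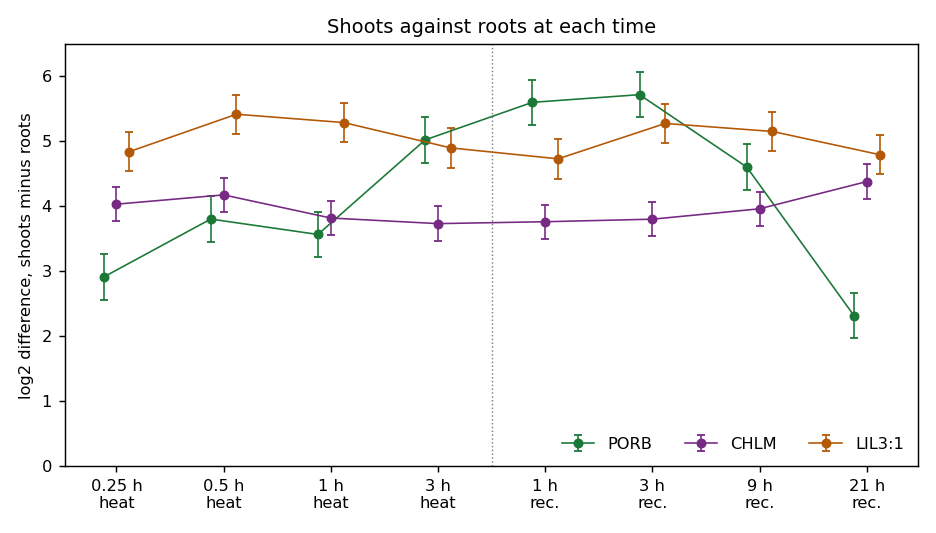
Log2 difference between shoots and roots (shoots minus roots, 95% intervals) of the 3 members at each time, where rec. is recovery and the dotted line marks the end of heat. PORB runs from 2.32 at 21 h of recovery to 5.72 at 3 h of recovery, while CHLM stays between 3.74 and 4.38. The LIL3:1 values, 4.73 to 5.42, have a root side below the 40th percentile on every array.

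All 3 members were higher in shoots than in roots at all 8 times, with the signals of shoots and roots never overlapping. For PORB the log2 difference was 2.91, 3.81, 3.57 and 5.02 after 0.25, 0.5, 1 and 3 h of heat and 5.60, 5.72, 4.61 and 2.32 at 1, 3, 9 and 21 h of recovery, with a largest adjusted p of 4.482e-12. The ratio of PORB mean signals between shoots and roots was 61.2 at 1 h of recovery, where both root arrays lay above the 40th percentile. At 21 h of recovery, where neither did, PORB was at least 5.51-fold higher in shoots. This bound, added after the values were seen, sets each dim root array at its own 40th percentile. For CHLM the difference lay between 3.74 after 3 h of heat and 4.38 at 21 h of recovery, and the ratio of mean signals between 14.4 and 23.3. LIL3:1, whose root signals were dim on every array, was by the same bound at least 25.8-fold higher in shoots at 1 h of recovery and at least 44.9-fold higher after 1 h of heat, the lowest and highest of the 8 bounds. Its tested differences were 4.73 to 5.42, with a root side that the added constant largely sets. Being higher in shoots was not rare among all probe sets: 15.3%, 14.7%, 14.3% and 14.6% passed in that direction after 0.25, 0.5, 1 and 3 h of heat, and 14.8%, 15.0%, 15.6% and 15.6% at 1, 3, 9 and 21 h of recovery. The median of all probe sets in these comparisons lay between -0.34 and -0.20, so relative to it the members stood higher by that much more.

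The change of PORB over time also differed between the tissues when the difference itself was tested. Relative to 21 h of recovery, the change in shoots exceeded that in roots by 1.48 after 0.5 h of heat (log2, adjusted p = 0.000585), 1.25 after 1 h (adjusted p = 0.000755) and 2.70 after 3 h (adjusted p = 8.103e-09). In recovery the excess was 3.28 at 1 h (adjusted p = 3.388e-10), 3.40 at 3 h (adjusted p = 1.184e-10) and 2.29 at 9 h (adjusted p = 1.444e-07). After 0.25 h of heat it was 0.59 (adjusted p = 0.192), and the higher level of PORB in shoots at that time is not shown to differ from the 0.72 in roots. Between 0.25 and 3 h of heat the change in shoots exceeded that in roots by 2.11 (adjusted p = 4.77e-07). The share of probe sets with a more positive change in shoots, by the same thresholds, was 0.477%, 0.453%, 2.22% and 6.88% after 0.25, 0.5, 1 and 3 h of heat against 21 h of recovery. It was 7.25%, 4.91% and 3.49% at 1, 3 and 9 h of recovery, and 6.19% for 3 h against 0.25 h of heat.

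For CHLM the same differences were between -0.65 and -0.20, all in the direction of a lower change in shoots and none past the size threshold. The largest was -0.65 after 3 h of heat (adjusted p = 0.0065). For LIL3:1 none passed the p threshold, and with its root signals below the 40th percentile nothing further is read from them.

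Other genes of the pathway were read from lists that held 90 loci in 7 groups, of which 22 had a probe set of their own name, the 3 members included. The other 19 comprised 7 of the porphyrin trunk (HEMA2, GSA1, HEMB1, hemb2, HEME1, HEME2 and hemf2) and 2 of the magnesium branch (CHLI2 and AT1G74470, the geranylgeranyl reductase gene). Beside them were LIL3:2 and AT4G28025 on the light-harvesting-like list, AT2G35260 on the list of regulators, and SIRB, a ferrochelatase of sirohaem synthesis, on the haem list. NOL, a chlorophyll b reductase, AT1G44000 and AT5G38520 stood on the breakdown list, and the antenna genes LHCB4.1, LHCB4.2 and LHCB4.3 on the last. The related protochlorophyllide oxidoreductase genes PORA and PORC had no probe set of their own name and were not analysed here, nor was it tested whether their transcripts reach the PORB probe set.

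**Figure D4:**
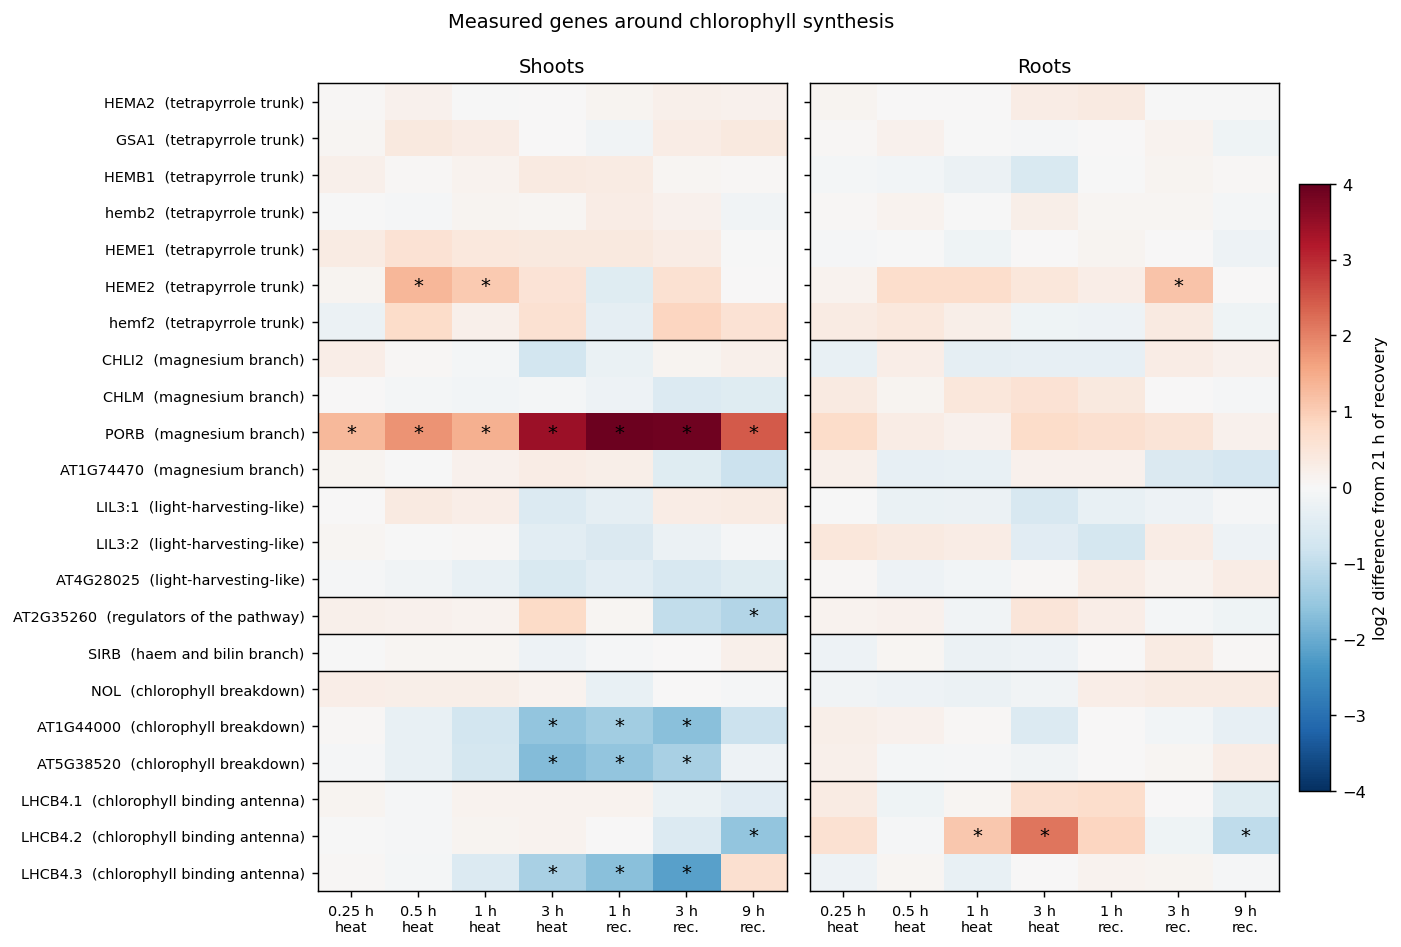
Log2 difference from 21 h of recovery (colour scale from -4 to 4) of the 22 measured genes on the pathway lists, in shoots (left) and roots (right). Lines separate the lists, stars mark differences that passed both thresholds, and rec. is recovery. In shoots PORB is the gene with stars at all 7 times, with a largest value of 3.92.

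In shoots, none of the other 19 genes passed at 0.25 h of heat, where 0.566% of all probe sets rose and 39 of 16782 fell. HEME2, a uroporphyrinogen decarboxylase of the trunk, rose by 1.31 after 0.5 h of heat (adjusted p = 3.988e-05), with signals of 906 and 929, against 360 and 365 at 21 h of recovery. It rose by 1.04 after 1 h (adjusted p = 0.000131) and was the gene of the 19 that rose at these times. Over all probe sets 1.25% rose after 0.5 h and 3.44% after 1 h. From 3 h of heat to 3 h of recovery none of the 19 rose and 3 fell, the same 3 at all of these times: AT1G44000, AT5G38520 and LHCB4.3. These are the 3 times at which PORB was highest. Over all probe sets 7.13% rose after 3 h of heat, 5.72% at 1 h of recovery and 5.69% at 3 h. With so few genes, nothing particular to the 19 is read from these counts.

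AT1G44000 had signals of 394 and 357 after 3 h of heat, against 1159 and 1111 at 21 h of recovery, and its log2 differences were -1.57 after 3 h of heat, -1.40 at 1 h of recovery and -1.66 at 3 h. Those of AT5G38520 were -1.75, -1.59 and -1.31 at the same times. LHCB4.3, one of the genes of the minor antenna protein CP29, reached -1.29, -1.68 and -2.19. In these comparisons 9.15% of all probe sets fell after 3 h of heat, 4.69% at 1 h of recovery and 4.7% at 3 h. At 9 h of recovery, where 2.26% of probe sets fell, 2 of the 19 did: AT2G35260 by 1.18 and LHCB4.2 by 1.57. The median log2 difference over the 19 genes was 0.07 after 3 h of heat, where that of all probe sets was -0.09, and 0.01 at 3 h of recovery, where that of all probe sets was 0.07.

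Genes that work beside the members did not pass both thresholds in shoots at any time. CHLI2, a subunit of the magnesium chelatase just upstream of CHLM, had shoot signals of 154 and 146 after 3 h of heat, against 261 and 249 at 21 h of recovery, a difference of -0.73 (adjusted p = 8.716e-05) that was under the size threshold. AT1G74470, whose product LIL3 holds, had 4323 and 4245 after 3 h of heat and 1799 and 2064 at 9 h of recovery, against 3652 and 3355 at 21 h, and the difference at 9 h was -0.86 (adjusted p = 8.563e-05). LIL3:2, the close relative of LIL3:1, had 673 and 661 after 3 h of heat, against 932 and 861 at 21 h of recovery, a difference of -0.42 (adjusted p = 0.00138), beside -0.54 for LIL3:1. At 1 h of recovery the difference was -0.58 for LIL3:2 and -0.36 for LIL3:1.

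In roots, 1 of the 19 genes was called after 1 h of heat, after 3 h of heat, and at 3 h and at 9 h of recovery, and 0 at the other 3 times. Over all probe sets the shares at these 4 times were 5.84%, 17.0%, 3.21% and 2.07%, and nothing particular to the 19 is read from the counts. LHCB4.2 rose by 1.09 after 1 h of heat and by 2.13 after 3 h (adjusted p = 1.613e-09), with signals of 187 and 273 after 3 h of heat, against 63.9 and 28.4 at 21 h of recovery, and it fell by 1.02 at 9 h of recovery. HEME2 rose by 1.15 at 3 h of recovery (adjusted p = 0.000109), with signals of 60.7 and 62.1, against 18.8 and 25.3 at 21 h. No other gene of the 19 passed in roots at any of the 7 times. LIL3:2, which unlike LIL3:1 lay above the 40th percentile in all 8 root groups, had 38.3 and 34.5 at 1 h of recovery, against 71.3 and 61.2 at 21 h, a difference of -0.71 (adjusted p = 7.931e-06) under the size threshold.

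The genes whose group means ran most like those of each member were taken from the 9237 other kept probe sets that name a gene, by the Pearson correlation of group means on the log2 scale. The correlations are descriptions over groups that share their arrays. For PORB, AT2G15960 came first both over all 16 groups (0.989) and over the 8 shoot groups (0.989). Its shoot signals were 927 and 905 after 3 h of heat, 1437 and 1148 at 1 h of recovery, 1887 and 1461 at 3 h, and lastly 92.5 and 102 at 21 h, so that it too was highest early in recovery and lowest at 21 h. Since it was chosen for this likeness, these values are a description. Over 16 groups Fes1B (0.973) and AT1G70820 (0.969) followed, and over the shoot groups pEARLI4 (0.986) and AT3G43520 (0.983).

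For CHLM over 16 groups the leading genes were PSBY, a photosystem II protein (0.998), the antenna gene LHCB4.1 (0.997) and TAPX, a thylakoid ascorbate peroxidase (0.997). For LIL3:1 they were AT1G32470 (0.996) and AT3G47650 (0.996). These values follow the difference between tissues, which the range of means shows: 7.19 log2 units for PSBY and 5.97 for AT1G32470. Within the 8 shoot groups the order changed. AT1G18460 (0.980) and AT3G55960 (0.977) then led for CHLM, and AT3G15160 (0.982) and SPR1 (0.972) for LIL3:1, and no gene was among the 5 most alike in both sets of groups for either of them.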

How the data were processed

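RNA of shoots and roots was measured on 32 Affymetrix ATH1 arrays. The deposited values are MAS5 signal intensity per probe set, made by the authors with MAS5 per the submitters' processing notes (version not given in the sources used here), and each array's trimmed mean lies near the same value. They were not normalized again. The 64 control probe sets were left out of 22810. Probe sets were named from the platform annotation: 13513 name 1 gene, 503 several and 8730 none, and those last stayed in the tests unnamed.

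Signals were taken as log2(signal + 10.7), where the constant is the 25th percentile of an array, taken as the median of all arrays. Probe sets above the 40th percentile of the array on both arrays of at least 1 group were kept (16782, with 5964 removed). A model of 16 group means was fitted with limma 3.58.1 in R 4.3.3 (eBayes with a trend, 16 residual and a median of 8.24 prior degrees of freedom), and p-values were adjusted by Benjamini-Hochberg within each contrast. The script was tested on simulated data. Tables and figures used Python 3.11.15, pandas 2.3.3, numpy 2.4.6 and matplotlib 3.10.9. Alternatives were other scalings, constants, filters and blocks, each tissue alone, and leaving out each array.

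The members, gene lists and naming rules were chosen with earlier results of these data known. Genes named are the members, every measured pathway gene that passed or sits beside a member, and the genes most alike by correlation. Replicate numbers did not pair arrays: over 120 pairs of groups the correlation of replicate deviations was -0.193 to 0.161. Replicate arrays correlated at 0.982 to 0.992. The number of arrays limits the precision. No genome was given, so no positions or sequences are shown.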

Additional observations from a re-analysis of the deposited data

Results flagged for a closer look

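PORB was marked because its change over time differed between shoots and roots by a test of the difference itself. The excess of the log2 change in shoots over that in roots, against 21 h of recovery, was 1.48 after 0.5 h, 1.25 after 1 h and 2.70 after 3 h of heat, and 3.28, 3.40 and 2.29 at 1, 3 and 9 h of recovery. For 3 h against 0.25 h of heat it was 2.11. PORB root signals lay between 20.1 and 45.4, where the added constant weighs most. With the constant divided or multiplied by 4, these differences kept their direction and their side of the thresholds.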

How the results depend on the processing

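The 105 member results were recomputed under 10 settings and with each array left out, 1457 values in all. The 41 that were called kept their direction and their side of the thresholds in every one. The replicate block left the shoot PORB value after 3 h of heat at 3.43 (adjusted p = 2.557e-14) and changed no call, and replicate numbers did not pair arrays. Under quantile normalization the excess of the PORB change in shoots from 3 h of heat to 1 h of recovery was 1.06 and passed, against 0.58. Directions turned only for values of at most 0.16 in size, none of them called, and the cause was not tested. Against 21 h of recovery unless stated, in shoots, quantile normalization gave 0.083 for PORB at 3 h against 1 h of recovery, and for CHLM -0.022 after 0.25 h of heat and 0.12 for the step out of heat to 1 h of recovery. In roots it gave -0.025 for CHLM at 3 h of recovery and 0.0046 for LIL3:1 at 9 h. Scaling to the 75th percentile gave, for CHLM in shoots, -0.0047 after 0.25 h and 0.026 after 1 h of heat and -0.034 for 3 h against 1 h, and -0.011 in roots at 3 h of recovery. For LIL3:1 the change against 21 h of recovery in shoots minus that in roots also turned. At 1 h of recovery it was 0.0485 under quantile normalization and 0.042 with the constant divided by 4. After 3 h of heat it was -0.23 with 4 times the constant.

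With 1 array left out, values against 21 h of recovery ran from -0.070 to 0.073 (CHLM) and -0.0034 to 0.048 (LIL3:1) in shoots after 0.25 h of heat. In roots they ran from -0.064 to 0.018 for LIL3:1 after 0.25 h and -0.077 to 0.31 for CHLM after 0.5 h of heat, and for CHLM from -0.17 to 0.21 at 3 h of recovery. At 9 h in roots they ran from -0.043 to 0.36 (PORB), -0.25 to 0.14 (CHLM) and -0.17 to 0.085 (LIL3:1). The LIL3:1 change in shoots minus that in roots ran from -0.051 to 0.26 after 3 h of heat and -0.21 to 0.083 at 1 h of recovery. In shoots, CHLM at 3 h against 1 h of heat ran from -0.021 to 0.054, and PORB at 3 h against 1 h of recovery from -0.12 to 0.076.

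With 4 times the constant, 27 of 37 counts of called probe sets were lower by 1.53 to 2.98 times. After 3 h of heat in shoots 765 rose, against 1196, and 751 fell, against 1535, and in roots 1538 were called, against 2850. At 3 h of recovery in shoots 516 rose, against 955, and at 1 h 477, against 960. With the constant divided by 4, 331 rose in shoots after 0.5 h of heat, against 210. Other scalings moved the median of all probe sets by up to 0.17.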
